A study of Mus musculus with 4 samples.

Results

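Ropporin and the proteins that dock beside it in the sperm tail are encoded by 5 genes, Ropn1, Ropn1l, Cabyr, Spa17 and Akap3, out of 21938 protein-coding genes. They were taken by name, and RFX2 binding was read at their promoters, which ran from 1000 bp upstream to 500 bp downstream of every annotated transcription start site (TSS). RFX2 occupancy came from ChIP-seq, the sequencing of DNA that an antibody against RFX2 pulls down with chromatin, in testis of wild type mice on a mixed C57BL/6, 129/Sv and FVB/N background. The labels give the age as postnatal day 29 to 30, whereas the text of the study describes germ cells of younger animals. The 4 samples were 2 RFX2 immunoprecipitates (replicates 1 and 2, antibody sc-10657) and 2 inputs without antibody, numbered in the same way. The series' design text gives 2 independent mice, and the study's text describes cell preparations without the number of animals in each.

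The values are those of 3 peak lists: 39825 peaks for replicate 1, 21274 for replicate 2, and 2726 in a stricter combined list that also gives the summit and the fold enrichment. The inputs entered only when the peaks were called, so no background level was available at any single gene, and read depth is unknown. The lists hold only peaks above a threshold, so a promoter without a peak has no value rather than a value of 0. Testis identity could not be checked against marker genes in lists of this kind.

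The fibrous sheath is the cytoskeletal sleeve that surrounds the axoneme and outer dense fibres in the principal piece of the sperm flagellum. AKAP3 is one of its main anchoring proteins, and an amphipathic helix in such proteins holds the regulatory subunits of protein kinase A. Ropporin (ROPN1), ROPN1L, CABYR and SPA17 each carry a domain like the docking domain of those regulatory subunits and can bind the same kind of helix. RFX2, a transcription factor of meiotic and haploid male germ cells, recognises a DNA motif called the X-box, which is made of a pair of inverted half-sites.

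RFX2 peaks lay at the promoters of 3 of the 5 genes, Ropn1l, Akap3 and Spa17, and were listed for these genes in both replicates. Promoter peaks in both replicates were found for 1985 of all protein-coding genes, or 9.05%. Ropn1l was the 1 gene of the 5 with a promoter peak in the combined list, where the share of all genes was 5.26%. At Ropn1 and Cabyr no list had a promoter peak, and 16.2% of all genes had one in at least 1 list. Over all genes, 14% had a promoter peak in replicate 1 and 11.3% in replicate 2. The combined list is not a further sample, so its peak at Ropn1l adds no replication.

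The DNA of the 3 occupied promoters and of Ropn1 was searched for the X-box. The X-box was taken from the data as the 14-bp word equal to its own reverse complement that occurred most often within 100 bp of combined summits. This word was GTTGCCATGGCAAC, present in 163 of the 2726 combined peaks, and its half-sites are the outer 6 bases on each side. In the sequences below the best pair of half-sites is in capitals, with 0 to 3 bases allowed between them, on the strand of the gene and 5′ to 3′. Those of Fsip1 and Prkar1a, from 2 other genes of the same flagellar structure or signalling pathway, are shown because their half-sites match the word in full. Other such genes with a combined peak, described below, matched less well within 100 bp of the summit. Their half-site mismatches were 4 at Rhpn1, 3 at Prkaca, 2 at Eno4, and 4 and 2 at the 2 Odf2 peaks. The Cabyr sequence is not shown.
Ropn1l, chr15:31453689-31453718 (GRCm38, minus strand): gcagctcggGTTGCCtGGAGACcgcacgcc
Spa17, chr9:37613596-37613625 (GRCm38, minus strand): aaaaaaacgGTTACCcAGCAACgagataaa
Akap3, chr6:126853052-126853081 (GRCm38, plus strand): ctcacatgGTTGCTatAGAAACagtgatgt
Ropn1, chr16:34649822-34649851 (GRCm38, plus strand): gcagtggaGTTGCCccGGCAAGgcacctag
Fsip1, chr2:118256959-118256988 (GRCm38, minus strand): cgcttctaGTTGCCagGGCAACagcgttct
Prkar1a, chr11:109650854-109650883 (GRCm38, plus strand): cctttaagGTTGCCaaGGCAACcgccctgg

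**Figure D1:**
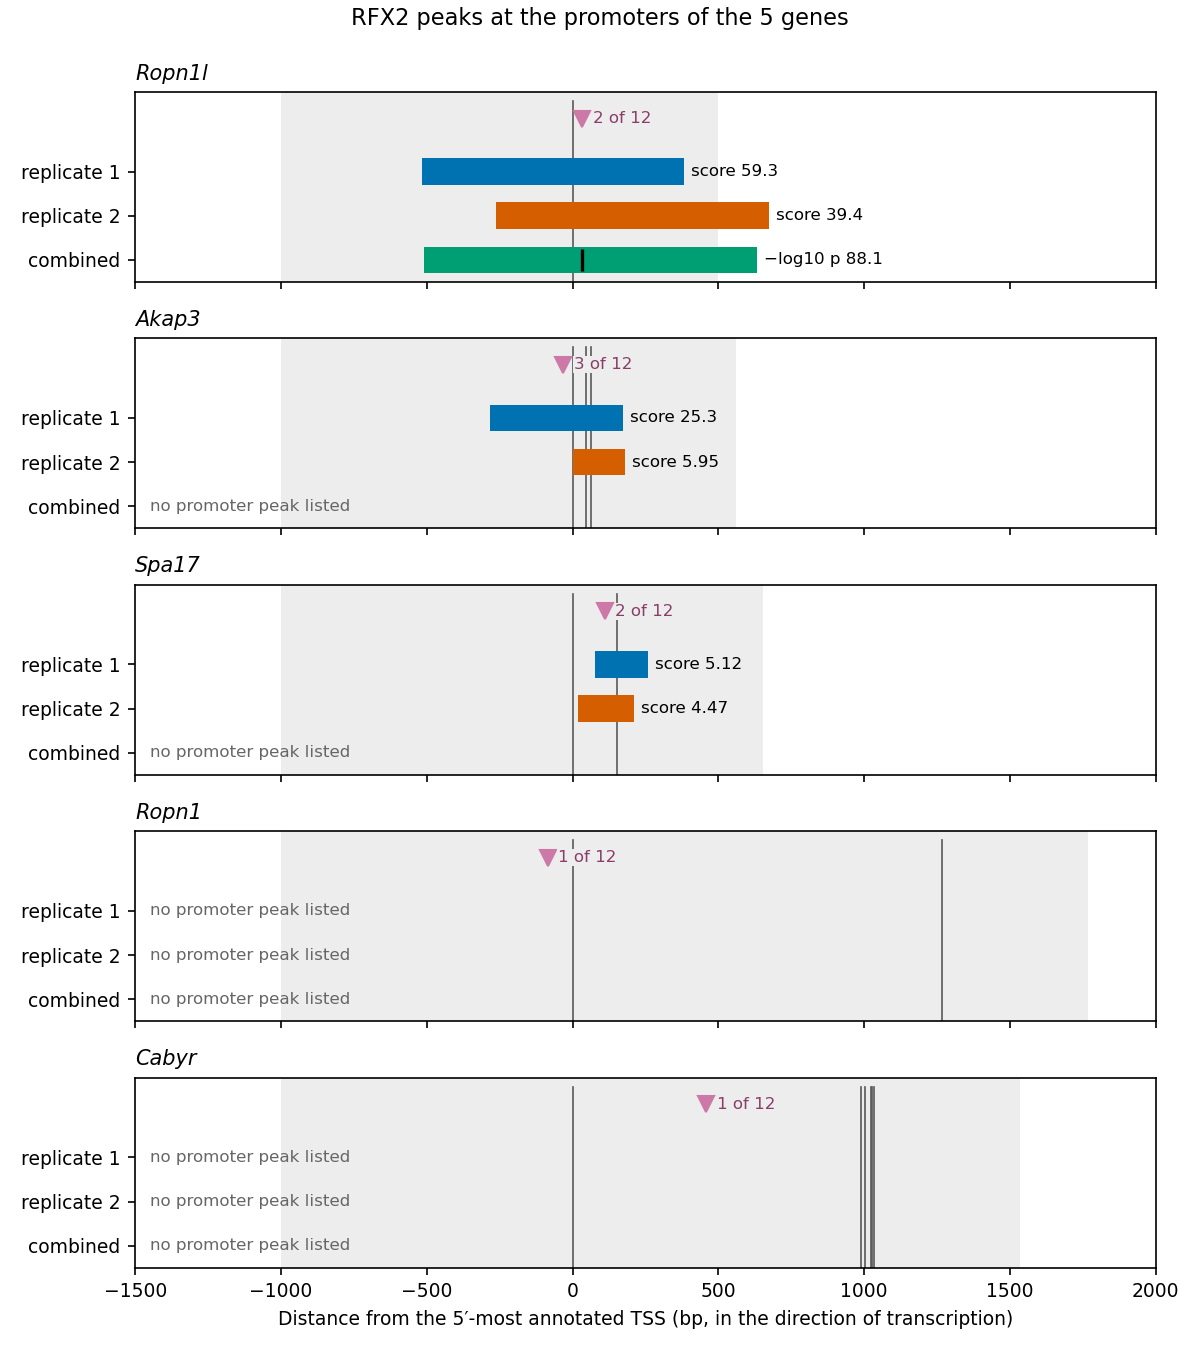
Peaks of the 3 lists at the 5 genes, drawn to scale in bp from the 5′-most TSS, with promoter windows in grey, TSSs as vertical lines, the combined summit as a black tick, and a triangle at the best X-box with its mismatches over 12 half-site bases. For Ropn1l, Spa17 and Akap3 the triangle is the best site close to the peak, and for Ropn1 and Cabyr the best in any promoter window. The Ropn1l bars are wide and occur in 3 lists, those of Akap3 and Spa17 are narrower and occur in 2, and Ropn1 and Cabyr have none. The Ropn1 TSS furthest downstream lies beyond the right edge.

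Akap3 (ENSMUSG00000030344.11) encodes the anchoring protein of the group, whose partners include the ropporins. The gene lies on chromosome 6 from 126853098 to 126874308 on the plus strand and has 3 TSSs within its first bases, at 126853098, 126853144 and 126853160. In replicate 1 a peak ran from 126852815 to 126853270, a width of 456 bp, with a score of 25.3 on a −log10 scale. It ranked 3609 of 39825 peaks, in the top 9.06%, and 1115 of the 3140 promoter peaks of that replicate. Its centre lay 56 bp upstream of a TSS.

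In replicate 2 the Akap3 peak ran from 126853101 to 126853278, was 178 bp wide and scored 5.95. It ranked 7259 of 21274, in the top 34.1%, a score that 770 peaks of the list share, and 1626 of 2448 promoter peaks. Its centre lay 29 bp downstream of a TSS, in the 5′ untranslated region (UTR). The replicate peaks shared 170 bp and their centres were 147 bp apart. The position of Akap3 within the list was thus well inside the upper part in replicate 1 and lower in replicate 2, with a top percentage 3.77 times that of replicate 1. With 1 list per replicate this difference has no test. No combined peak was listed at Akap3, and the nearest lay 587 kb away, 6.35 kb from the TSS of Parp11, a mono-ADP-ribosyltransferase gene.

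The Akap3 promoter holds the sequence GTTGCTATAGAAAC from 126853060 to 126853073, starting 38 bp upstream of the first TSS. It differs from the 14-bp word at 3 positions, C6T, G9A and C11A, counted from 1 at the 5′ end, word base first. All 3 changes fall in the half-sites. The sequence lies inside the replicate 1 peak but upstream of the replicate 2 peak, whose best match had 6 mismatches. Akap3 has a CpG-poor promoter. Within 500 bp on each side of the first TSS, the ratio of observed to expected CpG was 0.0591, at percentile 3.22 of all genes, and the G+C content was 45.2%. The 120 bases before the first TSS are shown because they hold the site and its surroundings, with the half-sites in capitals.
Akap3 upstream, chr6:126852978-126853097 (GRCm38, plus strand): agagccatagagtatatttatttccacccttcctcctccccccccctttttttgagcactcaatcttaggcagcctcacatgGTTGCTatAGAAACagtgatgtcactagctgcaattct

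Ropn1l (ENSMUSG00000022236.10) encodes the closest relative of ropporin among the 5 genes. It lies on chromosome 15 from 31441211 to 31453737 on the minus strand, with 1 annotated TSS at its right end. In replicate 1 the promoter peak ran from 31453355 to 31454253, was 899 bp wide and scored 59.3. It ranked 1474 of 39825, in the top 3.70%, and 661 of 3140 promoter peaks. In replicate 2 it ran from 31453063 to 31454001, was 939 bp wide and scored 39.4, at rank 729 of 21274, in the top 3.43%, and 464 of 2448 promoter peaks. Both replicates thus placed Ropn1l at nearly the same position in their lists. The peaks shared 647 bp, and their centres, 67 bp upstream and 205 bp downstream of the TSS, were 272 bp apart.

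The combined Ropn1l peak ran from 31453106 to 31454245, a width of 1140 bp against a median of 879 bp for combined promoter peaks. Its −log10 p was 88.1 and its −log10 q 84.0, at rank 1238 of 2726 and 596 of 1003 promoter peaks. The fold enrichment over local background was 8.82, against a median of 15.0 for combined promoter peaks, and 104 of the 1003 had a fold as low or lower. The Ropn1l peak was therefore near the middle of its list by p-value and near the bottom by fold. The promoter peaks on either side of it by −log10 p both had a higher fold, with 10.8 for Ccdc138, a coiled-coil protein gene, and 14.3 for Rnf32, a RING finger protein gene. In the replicates the Ccdc138 peak scored 69.5 and 32.9 and the Rnf32 peak 57.2 and 44.5, so that Ropn1l lay between them in both.

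The summit of the combined Ropn1l peak was at 31453705, 32 bp downstream of the annotated TSS in the 5′ UTR of the first exon. The 14-bp word had no match with fewer than 5 mismatches in the Ropn1l peak. The half-sites alone matched better, as GTTGCC and GGAGAC with 1 base between them, at 31453697 to 31453709, with 2 mismatches in 12 bases. The centre of this site was 2 bp from the summit. The RefSeq annotation starts Ropn1l at 31453689, and from that start the site lies 20 to 8 bp upstream and the summit 16 bp upstream. The annotations therefore place the same bases on different sides of the start of transcription. The peak also covers the start of Gm49208, a bidirectional long noncoding RNA on the plus strand from 31453738 to 31454901, and peaks carry no strand, so the transcripts cannot be told apart by binding. Ropn1l had the highest CpG ratio of the 5 genes, 0.849, at percentile 86.1 of all genes.

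Spa17 (ENSMUSG00000001948.10) encodes a sperm surface and fibrous sheath protein with a calmodulin-binding motif beside its docking domain. It lies on chromosome 9 from 37603290 to 37613722 on the minus strand, with TSSs at 37613570 and 37613722. The replicate 1 peak ran from 37613464 to 37613646, was 183 bp wide and scored 5.12, at rank 18784 of 39825. The replicate 2 peak ran from 37613511 to 37613704, was 194 bp wide and scored 4.47, at rank 13981 of 21274. These scores stood slightly above the median of all peaks in replicate 1, which was 4.47, and below the median of 5.06 in replicate 2.

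Among promoter peaks the Spa17 peak ranked 2357 of 3140 and 2020 of 2448, the lowest of the 3 occupied members in both replicates. The replicate peaks nevertheless overlapped by 136 bp, with centres 52 bp apart, 15 bp downstream and 37 bp upstream of a TSS. Their DNA holds the half-sites GTTACC and AGCAAC with 1 base between them and 2 mismatches in 12 bases. This site starts 46 bp upstream of the inner TSS. It lies downstream of the outer TSS and of the RefSeq starts at 37613720 and 37613721, in a UTR. The same peaks meet the promoter of Siae, the sialic acid acetylesterase gene on the opposite strand. The annotated Siae starts are at 37613321, 37613623, 37613670 and 37613827. Those at 37613623 and 37613670 lie between the Spa17 TSSs, and the others lie outside them. Binding here cannot be assigned to Spa17 rather than Siae. The nearest combined peak was 26.3 kb away, from 37586516 to 37587295 within Siae, at rank 1678, where −log10 p was 68.5 and the fold 15.5.

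Ropn1 (ENSMUSG00000022832.11) encodes ropporin itself. It lies on chromosome 16 from 34649921 to 34678618 on the plus strand, with TSSs at 34649921, 34651188 and 34666317. None of the promoter windows met a peak in any list. In replicate 2 a peak from 34665018 to 34665216 within an intron of Ropn1 ended 1101 bp upstream of the third of these TSSs, that of a noncoding transcript, and so fell just outside the 1000 bp limit. It scored 3.62, at rank 18797 of 21274, and its best match to the word had 4 mismatches. Replicate 1 had no peak there. Its nearest peak was 39.3 kb from a Ropn1 TSS, in Ccdc14, a coiled-coil protein gene, with a score of 7.27, and the nearest combined peak was 175 kb away in Kalrn, a gene for a guanine nucleotide exchange factor.

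Ropn1 nevertheless had the fewest half-site mismatches of any member within 200 bp upstream to 50 bp downstream of a TSS. By the 14-bp word it tied with the occupied Akap3, each with 3 mismatches. The sequence GTTGCCCCGGCAAG, from 34649830 to 34649843, starts 91 bp upstream of the first TSS. It differs from the word at A7C, T8C and C14G, of which only the last lies in a half-site, so that 1 of 12 half-site bases differs. RefSeq starts the curated Ropn1 model at 34651211 instead, and a predicted model at 34649832, inside the matching sequence. Around both upstream TSSs all 19 of 19 sampled 32-base words occurred once in the genome, against 18 of 19 at the occupied Spa17. The third TSS was not sampled, and whether mapping bears on the lack of a peak was not tested. The CpG ratio at the first TSS was 0.166, at percentile 18.2.

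Cabyr (ENSMUSG00000024430.14) encodes a calcium-binding protein of the sheath that is phosphorylated on tyrosine during capacitation. It lies on chromosome 18 from 12740322 to 12755260 on the plus strand, with 9 transcripts and 6 TSSs. No peak of any list lay near it. The nearest were 94.2 kb away in replicate 1, with a score of 3.64, and 131 kb away in replicate 2, with a score of 4.99, both within Osbpl1a, an oxysterol-binding protein gene. The nearest combined peak lay 784 kb away, and the TSS nearest to that peak was that of Cables1, 111 kb from it. The best match to the word in any Cabyr promoter window had 5 mismatches. Half-sites with 1 mismatch in 12 and 3 bases between them occurred in an intron 452 bp downstream of the first TSS, and near the TSSs the best had 3 mismatches. Sampled words at the Cabyr TSS at 12741355 were unique in 19 of 19 cases, and the other TSSs were not sampled.

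**Figure D2:**
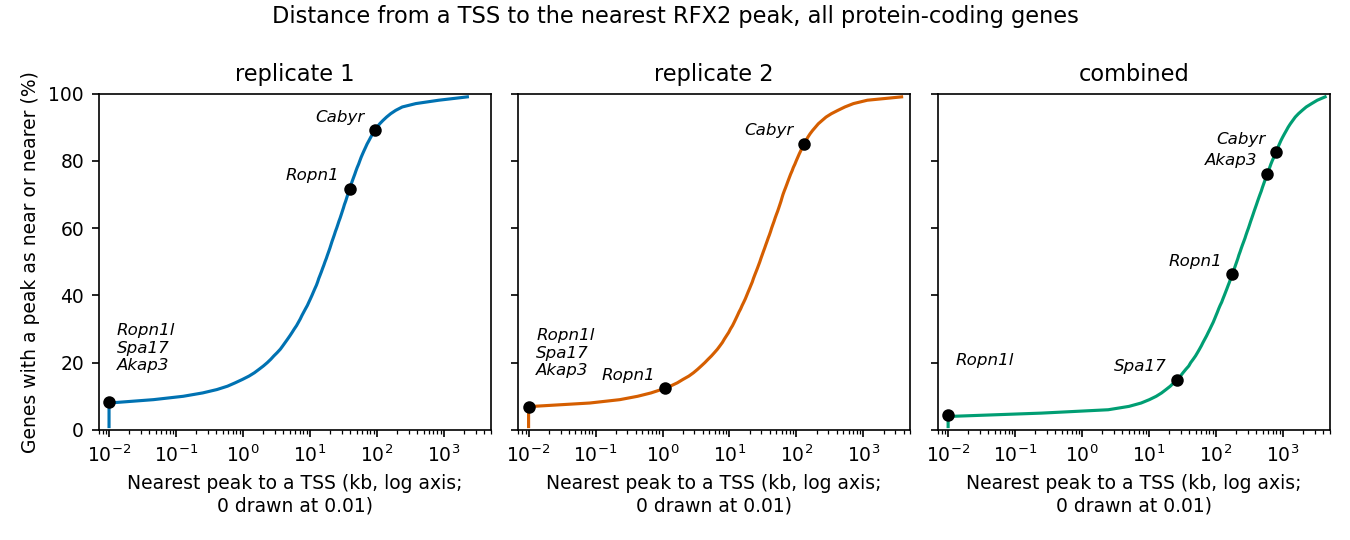
Distance from a TSS to the nearest peak edge (kb, log axis) against the share of protein-coding genes with a peak as near or nearer, one panel per list, with the 5 genes as black points. Cabyr lies at 89.1%, 85.1% and 82.6% in the 3 lists, and Ropn1 moves from 71.7% in replicate 1 to 12.5% in replicate 2 through its intronic peak.

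The distances were set against those of all genes. The median gene had its nearest peak 16.8 kb away in replicate 1, 28.4 kb in replicate 2 and 204 kb in the combined list. Cabyr was farther than the median in every list, with 89.1%, 85.1% and 82.6% of genes as near or nearer. Ropn1 was farther than the median in replicate 1, at 71.7%, and nearer in replicate 2, at 12.5%. Its combined value of 46.3% was close to the middle of all genes. For Akap3 the combined value was 76.2% and for Spa17 14.9%.

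The match to the X-box did not order the 5 genes by their binding. By half-site mismatches near a TSS the order was Ropn1 with 1, Ropn1l and Spa17 with 2, and Akap3 and Cabyr with 3. The highest score, that of Ropn1l, and the lowest score among the occupied members, that of Spa17, went with the same number of half-site mismatches. The best half-site match went with no peak. The allowance for other spacings of the half-sites was added after the data were seen. With the fixed 14-bp word and at most 3 mismatches, 1 of the 3 occupied members, Akap3, held an X-box in a peak, that of replicate 1 alone. Ropn1 held one without a peak.

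These matches have a background. The word was chosen from combined summit windows that include those counted here, and the windows to the right were not matched for base composition. Of the 1003 combined promoter peaks, 58.9% held the 14-bp word with at most 3 mismatches within 100 bp of the summit, and 0.798% of windows 1000 bp to the right did. Half-sites with at most 2 mismatches occurred in 64.1% of the summit windows and in 1.99% of the windows to the right, and those with at most 3 in 91.8% and 18.1%. The peaks of Akap3 and Spa17 are in the replicate lists alone, where matches around the peak centre were less common. The word with at most 3 mismatches was held by 26.2% of replicate 1 and 30.7% of replicate 2 promoter peaks, half-sites with at most 2 by 29.2% and 35.3%, and those with at most 3 by 55.4% and 62.0%. In the windows 1000 bp to the right of these centres, half-sites with at most 2 mismatches occurred in 2.10% and 1.84%, and those with at most 3 in 19.2% and 18.3%. Of all 1501-bp promoters, 8.96% held the word with at most 3 mismatches, 20.1% half-sites with at most 2 and 84.1% half-sites with at most 3. By half-sites a match like that of Akap3 is thus found somewhere in most promoters of this length, and by the word in 8.96% of them. These promoters are longer than the 200 bp searched around a peak centre. In 200-bp windows the half-site shares were 55.4% at replicate 1 centres and 19.2% to the right. In the windows 1000 bp to the right, the word with at most 3 mismatches was held by 0.669% for replicate 1 and 0.449% for replicate 2. Among the 643 summit windows with at most 2 half-site mismatches, 78.7% had 2 bases between the half-sites and 12.9% had 1, the spacing at Ropn1l and Spa17. The median distance of such a site from the summit was 7.5 bp, and 59.1% lay within 10 bp.

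**Figure D3:**
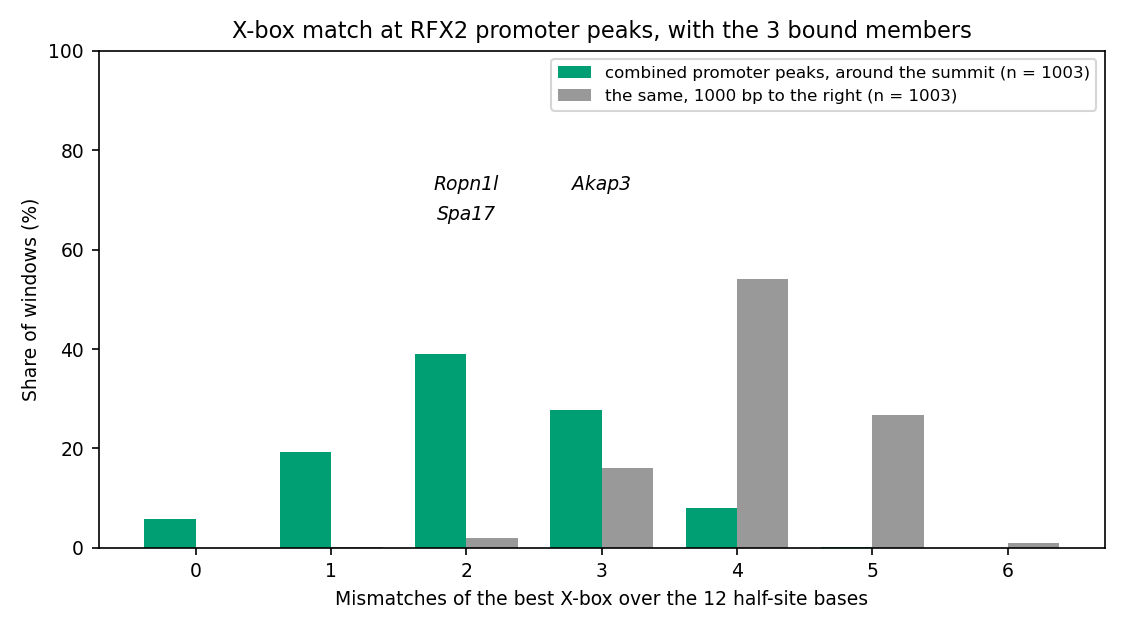
Share of windows (%) by the mismatches of the best X-box over 12 half-site bases, for 200 bp around the summits of 1003 combined promoter peaks (green) and for windows 1000 bp to the right (grey), with the names of the 3 occupied members above their own value. Ropn1l and Spa17 stand at 2 mismatches, where 39.0% of summit windows and 1.89% of shifted windows lie, and Akap3 at 3, where 27.7% and 16.1% lie. Spa17 and Akap3 have no combined summit and are placed by their replicate peaks, Akap3 by that of replicate 1, since its replicate 2 peak holds at best 4 mismatches.

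Unoccupied matches like that of Ropn1 were not rare. Within 200 bp upstream to 50 bp downstream of a TSS, 385 genes had a best half-site match with 1 mismatch. Of these, 62.1% had a promoter peak in both replicates, 42.6% in the combined list and 28.3% in no list. Among the 2285 genes with 2 mismatches, the class of Ropn1l and Spa17, 26.2% had peaks in both replicates and 62.7% in none. Of the 9780 genes with 3 mismatches, the class of Akap3 and Cabyr, 8.34% had peaks in both and 83.2% in none. The share of occupied genes fell with each further mismatch, while each of these classes held occupied and unoccupied genes. By the 14-bp word the classes differ. Akap3 and Ropn1 fall together among 936 genes with a best match of 3 mismatches, of which 37.9% had peaks in both replicates and 48.8% in none. Ropn1l, Spa17 and Cabyr fall among 20565 genes with 4 or more, of which 6.28% had peaks in both and 86.9% in none.

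A list of 17 other genes of the sheath, the outer dense fibres, kinase anchoring and sperm glycolysis was read in the same way. Promoter peaks were listed for 10 of them in replicate 1, for 8 in replicate 2 and in both, and for 6 in the combined list. As for the 5 members, these counts go beside backgrounds of 14%, 11.3%, 9.05% and 5.26%. No peak of any list met the promoters of Akap4, the major sheath anchoring protein, Fsip2, Fscb, Gapdhs, Ldhc, Pgk2 and Hk1.

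Of the kinase that the sheath anchors, the regulatory subunit genes Prkar1a and Prkar2a and the catalytic subunit gene Prkaca all had peaks in both replicates. Prkar1a scored 99.2 and 68.3, with a combined −log10 p of 160 at rank 435 and a summit 43 bp upstream of a TSS. Prkar2a scored 21.2 and 7.53, with a top percentage 2.36 times higher in replicate 2. It had no combined peak, although its promoter holds GTTGCCATGGTAAC, 1 mismatch from the word. Prkaca scored 30.4 and 18.3 and stood near the end of the combined list, at rank 2639 with a −log10 p of 44.4, at its internal TSS. The calls of Prkar1a and Prkaca rest on internal TSSs, since the Prkar1a summit lies 1473 bp and the Prkaca summit 4099 bp downstream of the 5′-most TSS. With the 5′-most TSS alone both genes had no promoter peak in the replicates or the combined list, which left 4 of the 17 genes in the combined list.

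Of the genes for partners and sheath proteins, Rhpn1, which encodes rhophilin, a binding partner of ropporin, had the highest replicate 1 score of all 22 genes, 141, and 66.2 in replicate 2. Its combined peak ranked 330 with a fold of 23.0 and a summit 107 bp upstream of a TSS. Fsip1, whose product binds the sheath, scored 127 and 77.7, at combined rank 396 with its summit 8 bp upstream of a TSS. The scores of Rhpn1 exceeded those of Ropn1l in both replicates, while Ropn1 itself had no peak. Akap14, a further anchoring protein gene, was listed in replicate 1 alone, with a score of 10.4.

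Eno4, a sperm enolase gene, scored 84.1 and 47.4, and its combined peak at rank 837 covers the start of the neighbouring Hspa12a as well. The outer dense fibre gene Odf2 had 2 combined peaks, with −log10 p of 58.5 and 52.7, and Odf1 scored 10.4 and 8.10 in the replicates without a combined peak. Aldoart1, a sperm aldolase gene, was listed in replicate 1 alone, with a score of 6.46. Of the 13 genes with a replicate 1 promoter peak, Ropn1l took place 5 by score, after Rhpn1, Fsip1, Prkar1a and Eno4, and Akap3 place 8. Spa17 was last, at place 13.

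**Figure D4:**
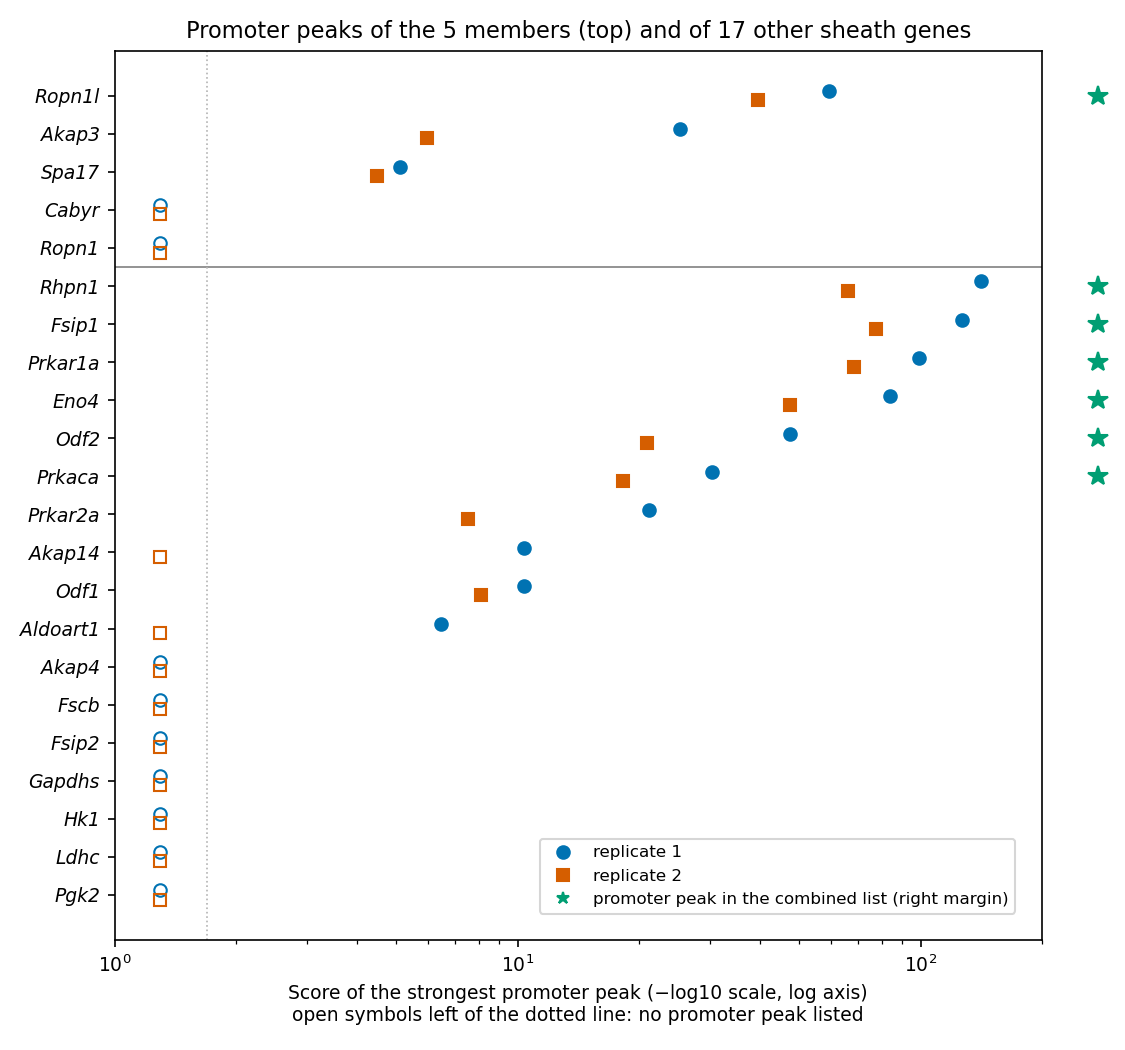
Score of the strongest promoter peak in replicate 1 (circles) and replicate 2 (squares) on a log axis, for the 5 members above the line and 17 other genes below, with open symbols for no listed peak and stars in the right margin for genes with a combined promoter peak. Ropn1l, at 59.3 and 39.4, lies among the genes with a star, whereas Spa17, at 5.12 and 4.47, has the lowest pair of scores.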

How the data were processed

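RFX2 ChIP-seq peak lists of 2 wild type replicates were used. Per the submitters' processing notes and the study's methods, the authors mapped reads with Bowtie 0.12.7 after CASAVA 1.8.2, discarded reads with several locations, removed reads that mapped to human DNA from 1 run of replicate 2, and called peaks with MACS2 2.0.10.20130520 against input. The deposited replicate lists hold 1 score per peak on a −log10 scale, and the sources used here do not say whether of p or q. The deposited combined list holds a score, the fold enrichment as a ratio, −log10 p, −log10 q and the summit, and has peak names beginning with "all". The methods describe a selection of reproducible peaks between replicates by the irreproducible discovery rate (IDR), and do not say how this list was made. The count of reproducible peaks that they give is close to the size of this list but not equal to it. The combined list may share reads with the replicate lists.

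Peaks were set on GRCm38 with GENCODE mouse release M21 and RefSeq sequence, using Python 3.11.15, numpy 2.4.6 and pandas 2.3.3. A promoter was occupied at an overlap of at least 1 bp with any TSS window. Distances refer to the summit, or to the peak centre in the replicate lists, and the nearest TSS. Ranks were taken within a list, since scores depend on depth, which is unknown here. Named were the 5 members, genes at or nearest to their peaks, genes of the list of 17 with peaks in the combined or both replicate lists, and the neighbours of Ropn1l by −log10 p. Akap14, Aldoart1 and the genes without peaks were named after their values were seen. The members and lists were chosen with earlier results of these data known, so no test was made. The scripts were tested on simulated data. Alternatives covered the TSSs, promoter window, overlap, threshold, list, X-box mismatches and window, and ranking measure.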

Additional observations from a re-analysis of the deposited data

How the results depend on the processing

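No paired analysis was possible because each result is read from peak lists and comes from no test. The combined list had a promoter peak at 1 member, Ropn1l, under each of the 5 other promoter definitions and thresholds tried. With the replicate 1 list or the replicate 2 list in place of the combined list the count was 3, and for the 17 other genes it was 10 and 8 in place of 6. With the 5′-most TSS alone it was 4, without Prkar1a and Prkaca. Promoter peaks in both replicates were found for 3 members, and for 3 and 3 without replicate 1 and without replicate 2. With the upper 50% of each list 2 were left, without Spa17, and the combined list gave 751 protein-coding genes in place of 1153. Members with an X-box at the peak numbered 1, namely Akap3, and 0 with at most 2 mismatches. In the alternative added after the data were seen, half-sites with 0 to 3 bases between them gave 3 with at most 3 mismatches and 2 with at most 2. Akap3 was counted in each case by its replicate 1 peak alone. The Ropn1l combined peak ranked 1238 by −log10 p, 497 by width and 2598 by fold. Akap3 fell to rank 6151 and 10911 by width in the replicate lists. From the 5′-most TSS the Spa17 centres lay 167 and 115 bp downstream. Of 54 alternative values in all, 40 kept within the set limits, 14 did not and 0 reversed. The limits were a factor of 1.5 for counts and 100 bp for distances. Some values could not differ, since the replicate lists already use the peak centre and Ropn1l has 1 TSS. Counts and ranks could not reverse, so these totals do not measure how stable the results are. The number of reads behind the lists is unknown, and with 2 replicates a weak peak such as that of Spa17 has no error.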
